A study of Mus musculus with 6 samples.

Results

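The genes described here encode 10 mitochondrial proteases or protease subunits, Htra2, Lonp1, Clpp, Clpx, Yme1l1, Oma1, Afg3l2, Spg7, Pmpcb and Parl. They were found by their gene symbols among the 27179 genes of an RNA-sequencing table of B16F10 cells, an established mouse melanoma line. The set was selected on a readout of these data, since it was put together after the p-value of Htra2 in the authors' own comparison was seen to be small. That p-value and all other values of that comparison were not used here. All 10 genes were found, each in 1 row.

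The cells, labelled wild type, were treated for 6 h with 0.01% ozonated olive oil (OZO; 3 cultures) or with 0.01% olive oil that had not been ozonated (OLO; 3 cultures). Both groups therefore received oil, and no library of untreated cells was analysed. The value analysed for each gene is the authors' average log2 CPM (read counts relative to library size) over all libraries of both treatments. A gene with 1 read in 1 library stood above a gene with no reads by the step that an average of 6 libraries gives, so the average covers all 6. An average of this kind gives the abundance of a gene's RNA over the experiment as a whole. Levels in OZO-treated and OLO-treated cells were not analysed separately, so no difference between the oils is given for any gene and no spread between cultures is known.

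Mitochondria make few of their own proteins and import the rest, and a set of proteases cuts the import signals, removes misfolded proteins and trims regulators of membrane shape. In the matrix these are LONP1, the ClpXP protease and the mitochondrial processing peptidase. The inner membrane holds the ring-shaped ATP-driven proteases with YME1L1 or with AFG3L2 and paraplegin, the stress-activated OMA1 and the rhomboid protease PARL. HTRA2, also known as Omi, lies in the space between the membranes. It degrades damaged proteins there, and once released into the cytosol it binds inhibitors of apoptosis.

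Reads of all 10 genes were plentiful. Their averages ran from 11.9 CPM for Oma1 to 304 CPM for Lonp1, and 9 of the 10 genes averaged at least 16 CPM. At the geometric mean library size of 19641946 reads, 1 CPM stood for 19.6 reads. Reads per library are given below as geometric means that still include the 0.5 reads added to each count, which matters only for genes with few reads. Since long transcripts collect more reads, levels were ranked between genes after division by transcript length in kb, with the longest annotated transcript unless another length is named. On this scale the median of the 10 genes was 23.9 CPM per kb, against 1.87 CPM per kb over 19227 genes with reads and an annotated length. The median of the 10 depended on the length used and was 55.9 CPM per kb with median transcript lengths and 17.6 with merged exons. Median lengths raised single genes by 0.25 (Lonp1) to 2.79 (Pmpcb) on the log2 scale. With the longest transcripts all 10 lay above the median of genes with reads. They stood between percentiles 62.8 and 95.9 of these genes, with a median percentile of 85.0.

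**Figure D1:**
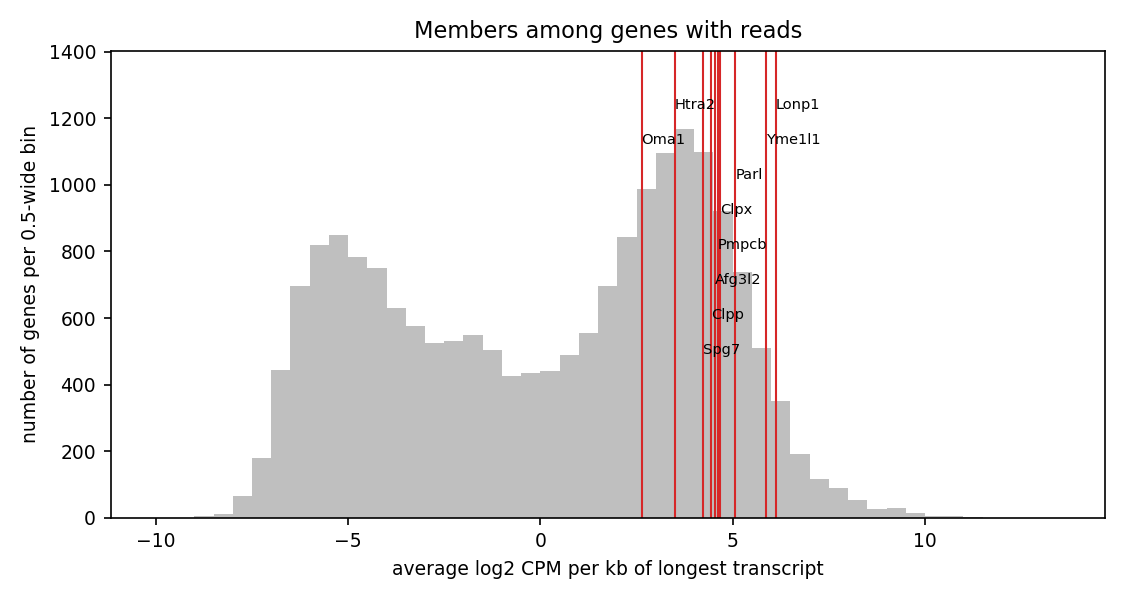
Number of genes with reads (grey bars) by average log2 CPM per kb of the longest transcript, in bins 0.5 wide, with a red line at the value of each of the 10 proteases. The lines fall in the right-hand peak of the distribution, from Oma1 at 2.63 to Lonp1 at 6.12.

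Lonp1, which encodes the ATP-driven matrix protease that removes oxidised proteins, had the highest level with the longest transcripts. Its average was 8.25 on the log2 CPM scale, or 304 CPM, which corresponds to 5977 reads per library. Per kb of its longest transcript this was 69.8 CPM, at percentile 95.9. Lonp1 lies on the minus strand of chromosome 17 (GRCm38, the mm10 build) from 56614297 to 56626887. Clpp lies 363417 bases further along the same chromosome.

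Clpp encodes the proteolytic chamber and Clpx the unfolding ring that feeds it. Clpp averaged 21.4 CPM and Clpx 73.8 CPM. Most of this gap goes with length, because the longest transcript of Clpp has 983 bases and that of Clpx 2885. Per kb the levels were 21.8 CPM for Clpp and 25.6 CPM for Clpx, a ratio of Clpx to Clpp of 1.18. Across the 4 ways of measuring length this ratio stayed between 1.18 and 1.21. By contrast, the level of Lonp1 per kb was 3.21 times that of Clpp, and between 2.76 and 4.74 times across the 4 lengths.

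Pmpcb, the catalytic subunit of the processing peptidase that cuts off import signals, averaged 101 CPM, or 24.4 CPM per kb. Its partner Pmpca, which was not among the 10 genes, averaged 114 CPM, or 36.4 CPM per kb. The order of the partners depended on the transcript chosen. The ratio of Pmpcb to Pmpca was 0.669 with the longest transcript of each gene and 1.71 with the longest protein-coding one. No order between these subunits can therefore be given.

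Among the inner membrane proteases Yme1l1 stood highest. Its average was 8.09 on the log2 CPM scale, or 273 CPM, and its level per kb was 58.0 CPM, at percentile 94.7. Oma1, which like YME1L1 cuts the fusion protein OPA1 but at another site, was at 11.9 CPM or 6.20 CPM per kb, the lowest of the 10 genes with the longest transcripts. Yme1l1 was 9.35 times as high as Oma1 per kb, and between 6.15 and 12.8 times across the 4 lengths. Opa1 itself averaged 190 CPM, or 30.6 CPM per kb. The difference between Yme1l1 and Oma1 was far larger than counting error, which was 0.558% of the level for Yme1l1 and 2.67% for Oma1. Counting error here is the error of read sampling over 6 libraries and does not include variation between cultures.

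Afg3l2 and Spg7 encode the subunits of the other ATP-driven protease of the inner membrane, which faces the matrix. SPG7 is paraplegin, and mice carry a further subunit gene, Afg3l1. Afg3l2 averaged 109 CPM, Spg7 64.0 CPM and Afg3l1 97.6 CPM. The longest annotated transcript of Afg3l2 has a single exon of 4664 bases and is no protein-coding model, so its level per kb, 23.4 CPM, is uncertain. With the longest protein-coding transcript, 3094 bases, it was 35.3 CPM per kb. The ratio of Afg3l2 to Spg7 was 1.24 with the longest transcripts, 1.60 with the protein-coding ones, 0.78 with merged exons and 0.439 with median transcript lengths. The direction turned with the length used, and no order is given.

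Parl, the rhomboid protease that cuts PINK1 and PGAM5, averaged 68.9 CPM. Its longest transcript has 2049 bases, and its level per kb was 33.6 CPM. On the log2 scale this was 5.07, and it moved to 4.15 with merged exons and to 6.35 with the median transcript length. Its substrates were both detected, Pink1 at 6.65 CPM per kb and Pgam5 at 21.4 CPM per kb.

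Htra2 was one of the 2 genes with the lowest levels per kb, beside Oma1, with each of the 4 lengths. It averaged 4.83 on the log2 CPM scale, or 28.4 CPM, which corresponds to 558 reads per library with a counting error of 1.73%. Per kb this was 11.3 CPM, at percentile 72.3 of genes with reads. On the log2 CPM per kb scale its level was 3.50 with the longest transcript and 4.68 with the median transcript length. Among the 11477 genes with a length that averaged at least 1 CPM, it was at percentile 53.6 and so close to the middle of the expressed genes. On the same scale Oma1 was at percentile 37.7 and Lonp1 at 93.1.

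In the order of levels per kb, Lonp1 was followed by Yme1l1, Parl, Clpx, Pmpcb, Afg3l2, Clpp, Spg7, Htra2 and Oma1. The steps from Clpx to Spg7 were small. Neighbours there differed by 1.04-fold to 1.15-fold, and the longest protein-coding transcripts gave 7 of the 10 genes another place. Larger steps separated Yme1l1 from Parl (1.72-fold), Spg7 from Htra2 (1.67-fold) and Htra2 from Oma1 (1.82-fold), but these also depended on the length. With the protein-coding transcripts Yme1l1 was at 5.86 and Parl at 5.67 on the log2 CPM per kb scale. With median transcript lengths the last step turned, with Htra2 at 4.68 and Oma1 at 4.80. Whether any neighbours differ beyond the spread between cultures cannot be said from averages. With the longest protein-coding transcripts Pmpcb moved up to the second place at 62.3 CPM per kb. Lonp1 was highest and Oma1 lowest with these and with merged exons, whereas median lengths put Yme1l1 highest, at 8.48 on the log2 scale against 6.38 for Lonp1, and Htra2 lowest.

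**Figure D2:**
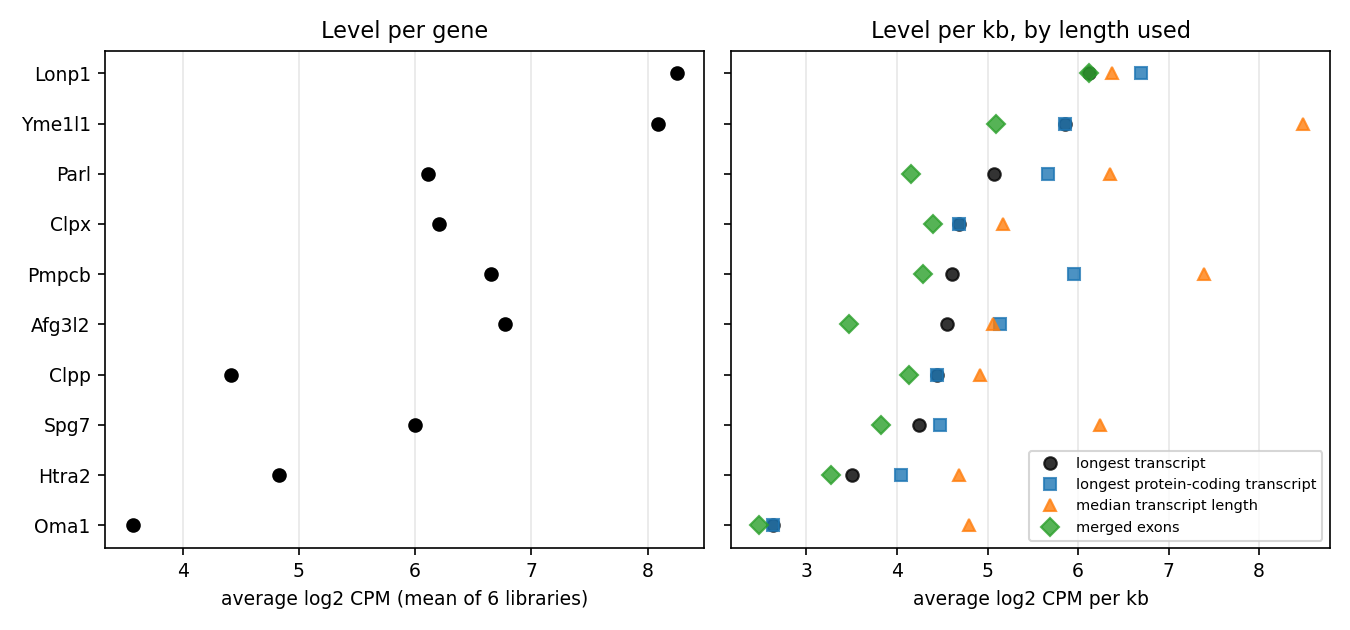
Left, average log2 CPM of each protease gene over 6 libraries, not divided by length. Right, average log2 CPM per kb with 4 measures of transcript length (symbols). Oma1 and Htra2 lie lowest with every measure, Lonp1 is highest with every measure except the median length, and the genes between them change places. No error bars are drawn because values of single libraries were not analysed.

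The locus of Htra2 set it apart from the other 9 genes. Htra2 lies on the minus strand of chromosome 6 from 83051266 to 83055273 (GRCm38), and it was the only one of the 10 whose annotated exons share bases with another gene. At its 3′ end it runs into Loxl3, which lies on the opposite strand and encodes a lysyl oxidase-like enzyme. The genes have 535 exon bases in common, out of 1782 in protein-coding transcripts of Htra2. At its 5′ end it meets Aup1, a gene for a lipid droplet and degradation factor that also lies on the opposite strand. This overlap is 51 bases in protein-coding transcripts and 753 bases when all annotated transcripts of Htra2, noncoding ones included, are counted. In all, 32.9% of the protein-coding exon bases of Htra2 are shared, and 43.7% of the bases in all of its transcripts.

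Reads were plentiful on both neighbours. Loxl3 averaged 28.4 CPM and Aup1 109 CPM, not divided by length. The library kit, per the labels, keeps the strand of the RNA. Whether strand was used in counting is not given in the sources used here. Without strand, reads from the shared stretches cannot be told apart by gene, and the level of Htra2 is uncertain to that extent. Its part in the average of Htra2 was not tested. Spans of Clpx, Pmpcb and Spg7 also overlap other annotated genes, but share 0 exon bases with them.

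**Figure D3:**
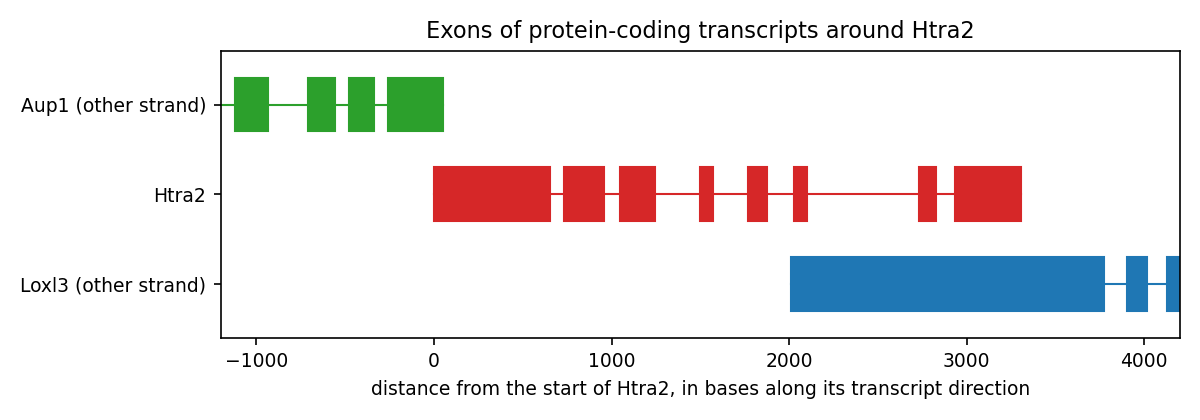
Exons of protein-coding transcripts (boxes) of Htra2 and its neighbours on the other strand, by distance in bases from the start of Htra2 along its direction of transcription. The last exon box of Loxl3 covers the 3 exon boxes of Htra2 nearest its 3′ end, and Aup1 reaches 51 bases into the first one. Both neighbours continue beyond the drawn range.

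Promoter windows of 300 bases, from 250 before to 50 after the annotated start, were taken from RefSeq (GRCm38.p6) for 8 of the 10 genes. Htra2 and Afg3l2 were not among them. The window of Spg7 starts at 123065258 on chromosome 8, inside the GENCODE span of the gene, which begins at 123062942. The 8 windows held 52.3% to 65.7% G and C, with a median of 58.7% against 52.7% over all 32851 windows. Their median ratio of observed to expected CpG was 0.891, against 0.384 over all windows. The letters TATAAA occurred in 0 of the 8 windows on either strand, and in 13.6% of all windows. The core of the motif of ETS factors such as GABPA, an activator of many nuclear genes for mitochondrial proteins, was searched as CCGGAAG on both strands. It occurred in 4 of the 8 windows and in 8.86% of all windows. These letters hold a CG, and the windows compared were neither matched to the 8 for CpG nor limited to genes with reads. Whether the higher share goes beyond the higher CpG ratio was not tested. The matches are shown because they recur in the set. Each stretch has 30 bases, and capitals mark the match, which in the last stretch of Yme1l1 lies on the opposite strand. The stretches overlap annotated exons, with all 30 bases in each stretch of Yme1l1, 22 in Pmpcb, 16 in Parl and 9 in Clpp.

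Yme1l1 (chr2:23156421-23156450, plus strand): tgacagagtccCCGGAAGaggcggagcgct
Yme1l1 (chr2:23156475-23156504, plus strand): ggaggcttgctCCGGAAGcactgtacctat
Yme1l1 (chr2:23156497-23156526, plus strand): gtacctatggtCTTCCGGggcagatgtcgt
Pmpcb (chr5:21737133-21737162, plus strand): ggagtcatgacCCGGAAGtacatctccact
Parl (chr16:20302372-20302401, minus strand): ttttcttcgccCCGGAAGtgatttctaggc
Clpp (chr17:56990284-56990313, plus strand): ccgggtgttgtagttCCGGAAGccaagccg

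The other motifs searched gave the following counts. The core of the NRF1 motif, GCATGCGC, was found in 1 of the 8 windows, that of Clpx, and in 2.71% of all windows. GGGCGG, bound by SP1, was found in 5 of 8 windows and in 35.7% of all. The E-box CACGTG was found in 1 of 8, that of Lonp1, and in 7.15% of all. CCAAT was found in 2 of 8 and in 37.4% of all. AAGATGGC, part of the YY1 motif, was found in 1 of 8 and in 2.75% of all. GACTCAGC, 1 form of the end of the antioxidant response element, was found in 0 of 8 and in 1.44% of all. TGATGCAA, from the element bound by CHOP and ATF4, was found in 0 of 8 and in 0.895% of all. Every motif was searched as exact letters on both strands, and overlaps between different motifs were not removed. Other forms of these elements were not searched, so a count of 0 does not show that an element is absent. Such matches describe the letters and do not show binding.

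The upstream sequences of the genes with the highest and the lowest level by longest transcript, Lonp1 and Oma1, and of Clpx, with the NRF1 match, are given in full over 200 bases that touch no annotated exon. Capitals mark the ETS, SP1, NRF1, E-box and CCAAT letters given above, on either strand.

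Lonp1 (chr17:56626904-56627103, minus strand): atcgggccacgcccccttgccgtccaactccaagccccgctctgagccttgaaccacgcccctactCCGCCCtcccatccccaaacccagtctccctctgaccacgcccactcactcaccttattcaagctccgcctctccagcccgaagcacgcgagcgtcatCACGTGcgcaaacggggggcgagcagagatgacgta
Oma1 (chr4:103313612-103313811, plus strand): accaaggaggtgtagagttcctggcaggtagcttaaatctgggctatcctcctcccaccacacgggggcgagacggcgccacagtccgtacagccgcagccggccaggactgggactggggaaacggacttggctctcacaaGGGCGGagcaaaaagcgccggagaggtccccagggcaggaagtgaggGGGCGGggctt
Clpx (chr9:65294060-65294259, plus strand): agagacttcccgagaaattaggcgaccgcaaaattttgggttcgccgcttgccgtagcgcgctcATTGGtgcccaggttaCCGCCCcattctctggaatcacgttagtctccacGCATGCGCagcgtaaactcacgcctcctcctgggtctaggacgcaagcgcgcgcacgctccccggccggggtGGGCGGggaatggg

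Lonp1 held its E-box 36 bases before the RefSeq start, and the NRF1 match of Clpx began 86 bases before it. Oma1 held only GGGCGG among the motifs marked.

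Beyond the 10 genes, 10 further mitochondrial peptidases were listed and all had reads. Their median was 15.4 CPM per kb, and 8 of them lay above the median of all genes with reads. Pitrm1, which degrades cleaved import signals, was highest at 57.2 CPM per kb, close to Yme1l1. Immp1l, a subunit of the inner membrane peptidase, had 43.8 CPM per kb, whereas the other subunit, Immp2l, averaged only 0.565 CPM or 11.1 reads per library, the added 0.5 included. Atp23 was also low, with 2.36 CPM.

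The 11 mitochondrial chaperones and protease partners had a median of 59.3 CPM per kb and all lay above the median of genes with reads. Hspd1 and Hspa9, chaperones of the matrix, reached 824 and 425 CPM per kb, far above any of the 10 proteases. Phb2, a subunit of the prohibitin ring around the AFG3L2 protease, had 85.0 CPM per kb. Maip1, which binds the same protease, had the lowest level of the list, at 4.36 CPM per kb.

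The 11 substrates and targets of these proteases all had reads, with a median of 16.5 CPM per kb. Prelid1, a lipid carrier degraded by YME1L1, was highest at 88.4 CPM per kb. Tfam, the mitochondrial DNA packaging factor that LONP1 degrades, had 17.0 CPM per kb, and Dele1, the messenger that OMA1 cleaves under stress, 7.03 CPM per kb.

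In the apoptosis route in which HTRA2 acts, 5 of 7 genes averaged at least 1 CPM. Cycs, which encodes cytochrome c, had 145 CPM per kb and Diablo 12.9 CPM per kb. Xiap, the caspase inhibitor that released HTRA2 binds, had 20.7 CPM per kb against 11.3 for Htra2. The ratio of Htra2 to Xiap was 0.546, and stayed between 0.329 and 0.795 with the 4 lengths. Birc2 was at 11.6 CPM per kb. Birc3 averaged under 1 read per library and Endog 9.67, the added 0.5 included.

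**Figure D4:**
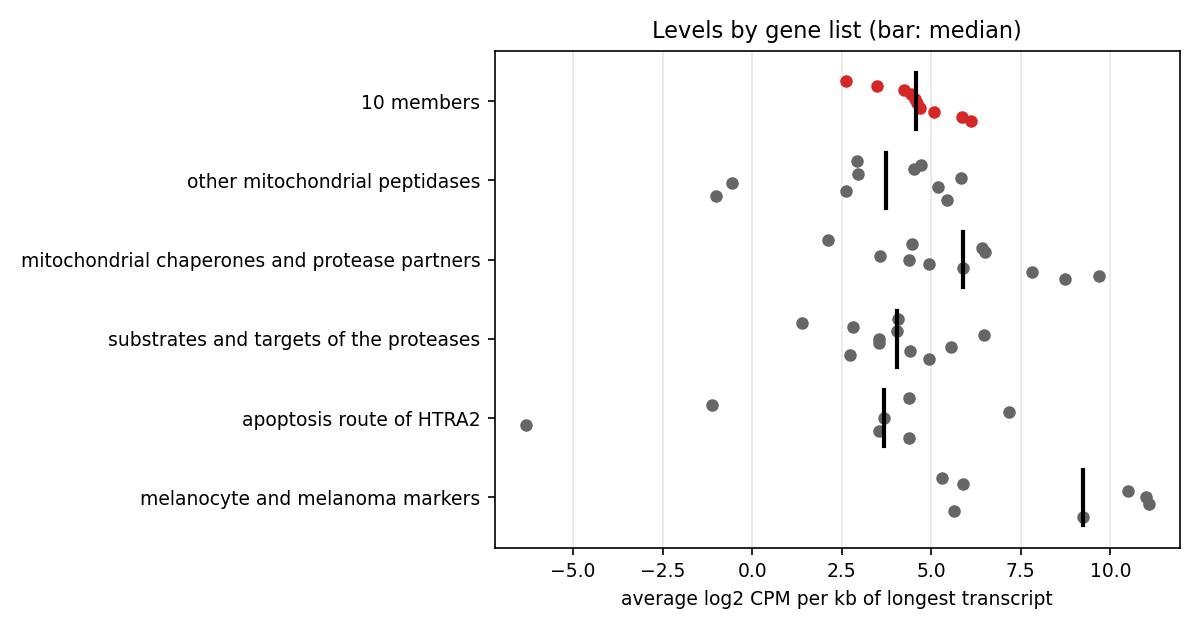
Average log2 CPM per kb of the longest transcript for each gene (points) of the 10 proteases, of 4 related lists and of melanocyte markers. The 4 lists are other mitochondrial peptidases, mitochondrial chaperones and protease partners, substrates and targets, and the apoptosis route of HTRA2. Black bars are medians. The 10 proteases lie within 3.49 log2 units of each other, a narrower range than those of the chaperones and of the other peptidases, which both overlap it.

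The cells carried the markers of their lineage. All 7 melanocyte and melanoma markers averaged at least 109 CPM, with Dct, an enzyme of melanin synthesis, at 7050 CPM. Of the 4 keratinocyte markers, Krt5 had no reads and the other 3 averaged under 1 read per library. Summed averages were 5.03 CPM for 3 fibroblast markers, 5.58 CPM for 3 leukocyte markers, of which Cd68 gave 5.47, and 1.31 CPM for 2 endothelial markers.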

How the data were processed

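Per the labels, RNA of 6 cultures was made into libraries with a directional kit. The methods name HISAT2 (2.1.0) for alignment of the reads to mm10. For the comparison they name featureCounts (2.1.1) and limma-voom (3.58.1), and these steps were run by the authors. That limma-voom also gave the average levels was inferred from the name and form of the values. The deposited values used here are average log2 CPM with 0.5 reads added to each count, over all libraries. The table also holds 5 columns of the authors' own comparison (log2 fold change, moderated statistic, raw and adjusted p-value and log odds), which were not used. Strand setting and counting annotation are not given in the sources used here.

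CPM was computed as 2 to the power of the average, a geometric mean. Library size was the value that gives genes without reads (6025 of 27179) their shared lowest average; it is a geometric mean, and single libraries were not analysed. Lengths, exons and positions came from GENCODE M21 on GRCm38, matched by Ensembl identifier for 23882 genes. The main length was the longest transcript. Because no group values were used, no test was made between OZO and OLO, although tests for counts and for normalised values had been planned. The 10 genes and the lists were chosen with earlier results of these data known. Genes named were the 10, the members of the fixed lists, and Loxl3 and Aup1, which were named after their overlap was seen. Phb was found under its newer symbol Phb1. The calculations of library size, number of libraries and CPM were tested on simulated counts, and that of the percentile on a short series of numbers. Division by length, exon overlaps and motif searches were not tested in this way. Python 3.11.15, numpy 2.4.6, pandas 2.3.3 and scipy 1.17.1 were used.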

Additional observations from a re-analysis of the deposited data

How the results depend on the processing

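No paired analysis was possible because only averages over all libraries were analysed. For the same reason the planned tests between OZO and OLO, with other normalisations, filters, pseudocounts, a replicate block and each library left out, were not run. The median of the 10 genes was 23.9 CPM per kb with the longest transcript, 55.9 with the median transcript length and 17.6 with merged exons. With the longest protein-coding transcript, added after the data had been seen, it was 30.4. With median lengths Yme1l1 was highest and Htra2 lowest, whereas Lonp1 and Oma1 held these places with the other lengths. The median percentile of the 10 genes was 85.0 among genes with reads, 87.9 among all genes with a length, 74.8 among genes averaging at least 1 CPM and 83.7 among protein-coding genes with reads. Among the same genes with reads but without division by length, also added afterwards, it was 82.1. These levels average both oils, so a change under OZO would enter each of them in part, and its size was not analysed here.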
